A study of Mus musculus with 14 samples.

Results

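The data describe 35 genes of the lysosome and of autophagy in KL974 cells, a mouse acute myeloid leukemia (AML) line whose genotype is labelled Trp53R172H;shMll3;shNf1. The genes were taken by exact gene name from a table of 53465 genes, and all 35 were among the 10791 genes with enough counts to be tested. They comprise 4 proteins of the lysosomal membrane, 11 hydrolases, 3 proteins of the lysosomal lumen that act beside the hydrolases, 4 genes of the proton pump, 2 transcription factors, 3 autophagy receptors, 4 members of the ATG8 family and 4 genes of the machinery that forms autophagosomes. The cells carried lentiviral short hairpin RNAs switched on by doxycycline and linked to a blue fluorescent protein (BFP), and were grown in RPMI medium with serum, IL3, IL6 and SCF. RNA was measured by polyA-selected sequencing in 7 groups of 2 libraries each. BFP positive cells of day 4 carried shOgdh346 or shOgdh2081, which both target Ogdh. Cells with shRen713, the control hairpin against Renilla luciferase, were taken untreated at day 0 and sorted as BFP positive or BFP negative at day 2 and day 4. Every group shares the Trp53, Mll3 and Nf1 background of this 1 line, and a comparison with day 0 spans time, doxycycline and sorting at once, since the titles of day 0 name no sort. Whether the 2 libraries of a group came from separate cultures is not labelled. The p-values therefore rest on a spread between libraries that may be technical.

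Lysosomes break down material delivered by endocytosis and autophagy with hydrolases that work in an acid lumen kept by a proton pump, the V-ATPase. Autophagy receptors tie cargo to ATG8 proteins on the forming autophagosome, which then fuses with the lysosome. The transcription factors TFEB and TFE3 enter the nucleus when the kinase complex mTORC1 at the lysosomal surface is less active, and bind an E-box in the promoters of many of these genes. Ogdh encodes the first enzyme of the 2-oxoglutarate dehydrogenase complex in the citric acid cycle.

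Library totals ran from 913482 to 10271698 counts, and the shallow libraries were shOgdh346 replicate 2 with 1159021 counts and shOgdh2081 replicate 1 with 913482 counts. Ogdh itself had 60.8 and 60.8 CPM in shOgdh346 cells and 51.5 and 52.3 CPM in shOgdh2081 cells, against 247 and 267 CPM in control BFP positive cells of day 4 (log2 fold change of the mean of both hairpins -2.19 ± 0.09 SE, edgeR adjusted p = 1.63e-30). CPM are counts scaled to the total of the tested genes and by edgeR's TMM factors. For the cell type markers alone, CPM are counts scaled to the total of all genes, without TMM factors. Of 11 markers of macrophages and monocytes, 4 had no count in any library (C1qa, C1qb, Itgam, Ly6c2), and the list summed to between 5.18 and 8.64 CPM in the Ogdh hairpin libraries and between 3.18 and 7.52 CPM in the control libraries. Its highest gene, Ccr2, reached 6.05 CPM. Neutrophil granule genes summed to at most 1.17 CPM. The progenitor list was split: Kit was at 464 CPM or more and Myb at 535.5 CPM or more in every library, while Ptprc reached 15.5 CPM and Spi1 2.19 CPM at most, and Cd34 had 2 counts and Flt3 3 counts in all 14 libraries together.

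Summed over the 9 markers of mast cells and basophils, of which Tpsb2 had no count, shOgdh346 libraries lay at 795 to 803 CPM and shOgdh2081 libraries at 757 to 799 CPM, against 582 to 608 CPM in control BFP positive cells of day 4. Nearly all of that sum came from Hdc (299.1 to 348 CPM over the 14 libraries), Il1rl1 (138.3 to 342 CPM) and Ms4a2 (17.3 to 127.7 CPM), while Cpa3 reached 8.76 CPM, Cma1 3.87 CPM and Fcer1a 2.59 CPM at most, and Mcpt8 had 1 count and Prss34 3 counts in all. Of 4 tested markers of that list 2 were called higher than in control BFP positive cells of day 4, Ms4a2 and Il1rl1. Of all tested genes 7.72% were called higher in that comparison, which the marker counts below also use. The 11 erythroid markers summed to 1229 to 1418 CPM in the Ogdh hairpin libraries and to 1045 to 1088 CPM in control BFP positive cells of day 4, and 6 of 11 were called higher. In the other control groups that sum was 1309 to 1330 CPM at day 0, 1052 to 1127 CPM in BFP positive and 1313 to 1339 CPM in BFP negative cells of day 2, and 1145 to 1265 CPM in BFP negative cells of day 4, and the ranges of day 0 and of both BFP negative groups overlapped that of the Ogdh hairpin libraries. The erythroid markers not called were Gata1 (log2 fold change -0.04), Klf1 (-0.06), Epor (-0.10), Alas2 (0.65) and Slc4a1 (0.74). The 6 progenitor and leukocyte markers summed to 1411 to 1448 CPM in the Ogdh hairpin libraries and to 1188 to 1195 CPM in control BFP positive cells of day 4, and 1 of the 3 tested, Myb, was called higher. The part of these markers in the differences described here was not tested, and in bulk RNA fewer cells of a type cannot be told apart from less RNA per cell.

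Per kilobase of the deposited transcript length, Psap led the 35 genes with a mean of 116.7 CPM per kb over the 14 libraries. It encodes prosaposin, the precursor of the saposins that help enzymes reach their lipid substrates. Lamp1, a main glycoprotein of the lysosomal membrane, followed with 98.6 CPM per kb, then the ATG8 gene Gabarap with 88.7 and Sqstm1, which encodes the autophagy receptor p62, with 66.6. The lowest means were those of Mcoln1, a calcium channel of the lysosome, with 4.39 CPM per kb, Atg7, the enzyme that activates ATG8 proteins, with 4.18, Grn (progranulin) with 3.80 and Npc1, the cholesterol exporter of the lysosomal membrane, with 3.40. The ranges over libraries of neighbours in this order overlapped, as for Psap (107.3 to 125.4 CPM per kb) and Lamp1 (82.5 to 116.1), except that Atg5, with 33.7 at the lowest, stayed above Ctsl, with 31.1 at the highest.

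Within each role the levels were uneven. Among hydrolases the cysteine protease Ctsz stood first with 55.8 CPM per kb and Hexa, the alpha chain of beta-hexosaminidase, last with 6.79. Among ATG8 genes Gabarap (88.7) and Gabarapl1 (52.7) stood far above Gabarapl2 (12.5) and Map1lc3b (7.28), and among the transcription factors Tfe3 (9.92) above Tfeb (5.41). These orders depend on the deposited lengths. In CPM the mean of Map1lc3b (54.7) was above that of Gabarapl2 (29.1). The deposited length of Map1lc3b, 7517 bases, equals all its exon bases in GENCODE M21, while that of Lipa is 2969 of 6780. The ratio of the highest to the lowest group mean in CPM was smallest for the pump subunit Atp6v1h, at 1.05, and largest for Ctsc, at 2.75, followed by Hexa at 2.61 and Mcoln1 at 2.09.

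**Figure D1:**
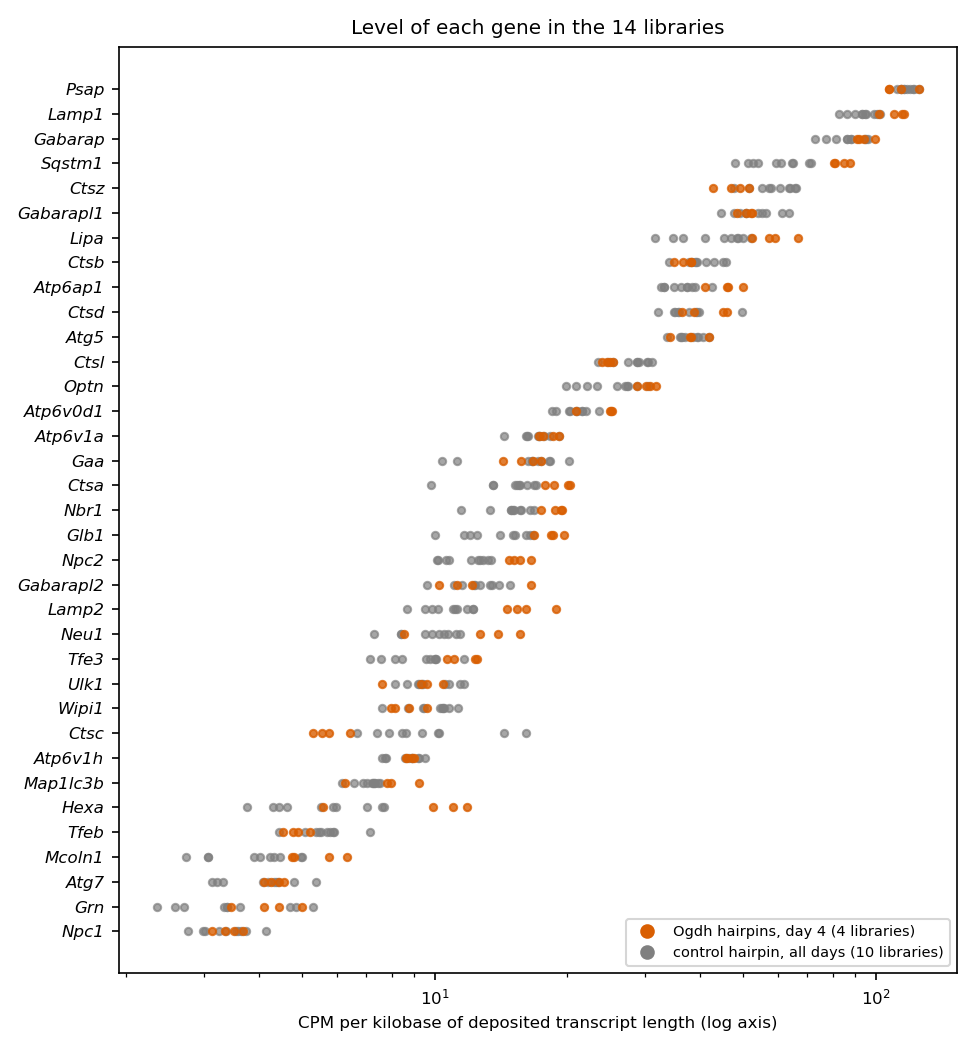
Level of each of the 35 genes in CPM per kilobase of deposited transcript length (log axis), with 1 point for each of the 14 libraries: orange for the 4 Ogdh hairpin libraries of day 4, grey for the 10 control hairpin libraries of all days. Genes run from Psap (mean 116.7) at the top to Npc1 (mean 3.40) at the bottom. The orange points lie to the right of all grey points for Sqstm1, Lamp2, Npc2, Ctsa, Nbr1 and, by a narrow gap, Lipa and Glb1. They lie to the left of all grey points for Ctsc, by a narrow gap. How many of all tested genes are apart from all 10 control libraries in this way was not counted.

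The promoters of 32 of the 35 genes were matched by symbol in RefSeq (GRCm38.p6), as the 250 bases before to 50 bases after the start. They were searched on both strands for the E-box CACGTG and for its extended form TCACGTGA, which contains it and is the core of the site that TFEB and TFE3 are known to bind. The E-box was found for 11 of the 32 genes (34.4%), against 2187 of all 27025 genes in the table (8.09%). The extended form was found for 5 genes (15.6%), against 304 of all genes (1.12%). Those 27025 genes were not limited to the tested ones, while all 35 genes were tested. Many lysosomal genes are already known to hold this site, so the larger shares are not a finding of these data. Lamp1 held 4 copies of the E-box, whose first bases lie at -61, -45, -28 and -15 from its start. Windows of the 5 genes with the extended form follow, since these are all the genes in which that site was found. They are shown 5′ to 3′ on the gene's strand with each CACGTG and TCACGTGA in capitals.
Ctsd, chr7:142387889-142387956, minus strand: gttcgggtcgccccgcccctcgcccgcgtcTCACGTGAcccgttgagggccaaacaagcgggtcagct
Ctsa, chr2:164833730-164833797, plus strand: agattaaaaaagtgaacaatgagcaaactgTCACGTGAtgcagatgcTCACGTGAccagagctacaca
Mcoln1, chr8:3500443-3500510, plus strand: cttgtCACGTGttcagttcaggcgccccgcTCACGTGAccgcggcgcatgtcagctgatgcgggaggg
Atp6v0d1, chr8:105566035-105566098, minus strand: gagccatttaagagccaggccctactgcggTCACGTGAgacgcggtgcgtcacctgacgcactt
Atp6v1a, chr16:44139354-44139421, minus strand: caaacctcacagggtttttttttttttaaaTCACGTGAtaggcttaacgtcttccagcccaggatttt
Ctsa, cathepsin A, which also protects neuraminidase and beta-galactosidase, held 2 extended E-boxes, 1 on each side of a RefSeq start. Mcoln1 held a core E-box at -71 ahead of its extended one, whose CACGTG began at -45. In Atp6v0d1, a subunit of the membrane sector of the pump, the CACGTG of the extended E-box began at -3 and spanned the start itself.

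Sqstm1, Lamp2 and Ctsc, whose calls under Ogdh knockdown held with any single library left out, had no E-box in their windows. The 250 bases before their starts are shown because they differ from the windows above; none of these 250-base stretches held the general form CANNTG, which 69.3% of all genes hold in the same stretch. With the 50 bases after the start included, as in the search above, Sqstm1 and Lamp2 did hold a CANNTG and Ctsc did not, where 25 of the 32 genes (78.1%) and 75.0% of all genes hold one.
Sqstm1, chr11:50210821-50211070, minus strand: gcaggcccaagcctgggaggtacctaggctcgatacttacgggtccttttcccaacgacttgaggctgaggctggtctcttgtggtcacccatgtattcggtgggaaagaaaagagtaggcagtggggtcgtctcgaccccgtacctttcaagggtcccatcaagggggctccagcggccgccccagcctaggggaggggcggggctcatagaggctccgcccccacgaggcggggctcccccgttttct
Lamp2, chrX:38456461-38456710, minus strand: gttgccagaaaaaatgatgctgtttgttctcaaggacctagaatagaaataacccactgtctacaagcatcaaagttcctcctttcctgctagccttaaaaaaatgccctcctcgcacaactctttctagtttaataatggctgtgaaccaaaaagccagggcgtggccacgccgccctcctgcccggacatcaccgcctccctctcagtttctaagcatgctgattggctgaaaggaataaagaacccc
Ctsc, chr7:88277835-88278084, plus strand: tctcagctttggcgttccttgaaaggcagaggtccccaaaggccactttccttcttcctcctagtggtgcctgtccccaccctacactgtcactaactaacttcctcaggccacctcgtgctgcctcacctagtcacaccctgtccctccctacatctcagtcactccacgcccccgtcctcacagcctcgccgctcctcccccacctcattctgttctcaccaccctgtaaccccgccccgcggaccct

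The first comparison asked how the lysosomal and autophagy genes differed between cells in which Ogdh was knocked down for 4 days and control BFP positive cells of the same day. Of the 35 genes, 8 were higher, 3 were lower and 24 did not pass (edgeR quasi-likelihood test on the mean of both hairpins, adjusted p under 0.05 over all tested genes). The genes that rose encode the receptor p62 (Sqstm1), 2 ATG8 proteins (Map1lc3b, Gabarap), a membrane glycoprotein (Lamp2), an aspartic protease (Ctsd), an acid lipase (Lipa), a cholesterol carrier of the lumen (Npc2) and an accessory subunit of the pump (Atp6ap1). The genes that fell were Ctsc, Ctsz and Ctsl, which encode cathepsins C, Z and L, while Ctsb, cathepsin B, did not pass (log2 fold change -0.09 ± 0.08 SE, adjusted p = 0.485). Of all 10791 tested genes 7.72% were higher and 8.36% lower (16.1% either way), against which 8 of 35 higher is a larger share and 3 of 35 lower a similar one. The median log2 fold change of the 35 genes was 0.13, with 26 of 35 above 0, and that of all tested genes was 0.0002. At an unadjusted p under 0.05 there were 16 of the 35. No share of all tested genes is given for counts at an unadjusted p, here or below. In 15 of 35 the Ogdh hairpin libraries and the control libraries did not overlap, against 36.1% of all tested genes.

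Together the 35 genes took 0.372% and 0.355% of the counts in shOgdh346 libraries and 0.356% and 0.366% in shOgdh2081 libraries, against 0.336% and 0.328% in control BFP positive cells of day 4. All 4 Ogdh hairpin libraries lay above all 10 control libraries, which ran from 0.292% to 0.341%. How often other sets of 35 genes lie apart in this way was not counted. The sum depends most on genes with many counts and does not show a joint rise, since 24 of the 35 were not called. Sqstm1 had means of 282 CPM with shOgdh346 and 279 CPM with shOgdh2081, against 179 CPM in control BFP positive cells of day 4. Psap had 304, 319 and 317 CPM in the same groups.

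Only Sqstm1, Lamp2 and Ctsc kept their calls when each of the 6 libraries of the comparison was left out in turn. The count of 11 fell to 4 without shOgdh2081 replicate 2, to 5 without control replicate 1, to 5 without control replicate 2 and to 7 without shOgdh346 replicate 1. It was 4 in DESeq2, 3 with libraries thinned to equal depth and 5 without a filter on low counts. Over all 18 other settings, Sqstm1 and Lamp2 kept their calls in 18. Ctsc and Ctsl each kept theirs in 16 and lost them in 2.

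**Figure D2:**
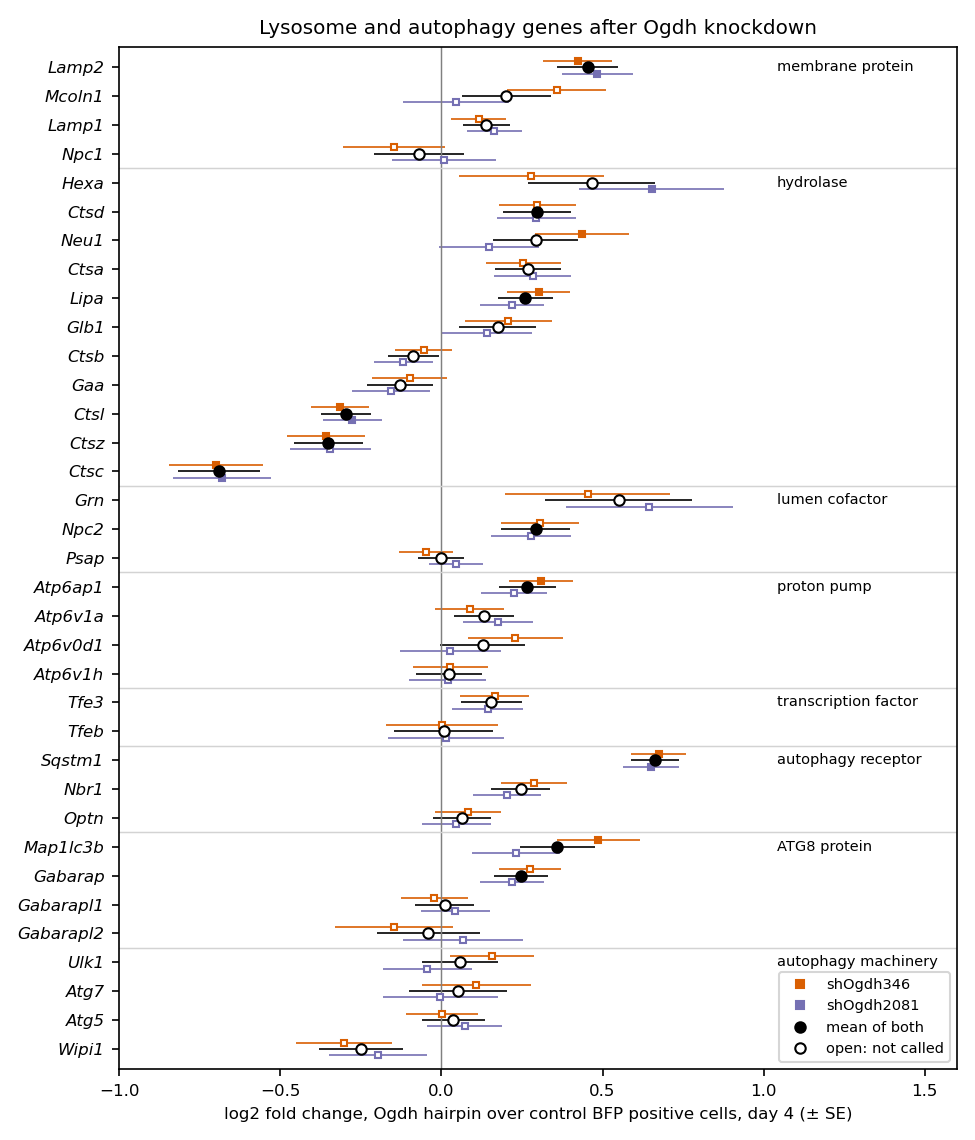
Log2 fold change (± SE) of each of the 35 genes in Ogdh hairpin cells over control BFP positive cells of day 4, grouped by role: circles for the mean of both hairpins, squares for shOgdh346 (orange) and shOgdh2081 (purple), filled where the adjusted p was under 0.05. Both squares are filled on the right for Sqstm1 and Lamp2 and on the left for Ctsc and Ctsl.

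Among the autophagy receptors, Sqstm1 was the gene with the smallest p of the 35. It had 293 and 270.4 CPM in shOgdh346 cells, 272 and 285 CPM in shOgdh2081 cells, and 177 and 181 CPM in control BFP positive cells of day 4. The Ogdh hairpin libraries lay above all 10 control libraries, and the rise over control BFP positive cells was 1.58-fold (log2 fold change 0.66 ± 0.08 SE, adjusted p = 6.99e-10). Nbr1, a second receptor of ubiquitinated cargo, had 129.1 and 134 CPM in shOgdh346 cells, 133 and 119 CPM in shOgdh2081 cells, and 102 and 113 CPM in control BFP positive cells of day 4. The groups did not overlap, but the difference did not pass (log2 fold change 0.25 ± 0.09 SE, adjusted p = 0.0531). Optn, optineurin, differed by 0.06 ± 0.09 SE on the log2 scale and did not pass (adjusted p = 0.686). Exons of Sqstm1 overlap those of Mrnip on the other strand over 580 bases, and Mrnip had 123 counts in all libraries where Sqstm1 had 10805. Whether the counting used strand is not stated in the labels or notes.

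Map1lc3b encodes LC3B, the ATG8 protein most often used to follow autophagosomes. It had 69.2 and 59.9 CPM in shOgdh346 cells, 47.2 and 58.6 CPM in shOgdh2081 cells, and 46.4 and 49.4 CPM in control BFP positive cells of day 4. Both shOgdh346 libraries lay above the control, while shOgdh2081 replicate 1 lay between the control libraries (log2 fold change 0.36 ± 0.12 SE, adjusted p = 0.025). The call was lost without shOgdh346 replicate 1, shOgdh2081 replicate 2 or either control library. Stretches of Map1lc3b are near-identical to processed pseudogenes such as Gm6055, which had 52 counts where Map1lc3b had 2670, so its reads may be split. Gabarap had 184 and 168 CPM in shOgdh346 cells, 169 and 174 CPM in shOgdh2081 cells, and 159 and 134.8 CPM in control BFP positive cells of day 4. Its groups did not overlap (log2 fold change 0.25 ± 0.08 SE, adjusted p = 0.0355), yet the call was lost without shOgdh346 replicate 1, shOgdh2081 replicate 2 or control replicate 2.

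The other ATG8 genes did not pass. Gabarapl1 had 102 and 97.6 CPM in shOgdh346 cells, 105 and 106 CPM in shOgdh2081 cells, and 102 and 103 CPM in control BFP positive cells of day 4 (log2 fold change 0.01 ± 0.09 SE, adjusted p = 0.958). Gabarapl2 had 23.8 and 28.2 CPM in shOgdh346 cells, 38.4 and 26.2 CPM in shOgdh2081 cells, and 31.01 and 22.4 CPM in control BFP positive cells of day 4 (log2 fold change -0.04 ± 0.16 SE, adjusted p = 0.902). Its libraries overlapped and its SE was the largest of the family. None of the 4 machinery genes was called: Ulk1, the kinase that starts autophagy, Atg5 and Atg7 of the conjugation system differed by 0.06 (Ulk1), 0.04 (Atg5) and 0.05 (Atg7) on the log2 scale, and Wipi1, which binds the lipid of the forming membrane, by -0.25 ± 0.13 SE (adjusted p = 0.191).

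Lamp2 encodes a glycoprotein of the lysosomal membrane that also serves chaperone-mediated autophagy. It had 154 and 139 CPM in shOgdh346 cells, 179.8 and 147 CPM in shOgdh2081 cells, and 117 and 105 CPM in control BFP positive cells of day 4. All 4 Ogdh hairpin libraries lay above all 10 control libraries (log2 fold change 0.45 ± 0.09 SE, adjusted p = 0.000325, 1.37-fold). Lamp1 had 307 and 272 CPM in shOgdh346 cells, 294 and 310.4 CPM in shOgdh2081 cells, and 274 and 270.0 CPM in control BFP positive cells of day 4 and did not pass (log2 fold change 0.14 ± 0.07 SE, adjusted p = 0.198). Mcoln1 (0.20 ± 0.14 SE, adjusted p = 0.343) and Npc1 (-0.07 ± 0.14 SE, adjusted p = 0.783) did not pass either. Npc1 shares exon sequence with Rmc1 on the other strand, which had 4647 counts where Npc1 had 1708.

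The hydrolases moved in both directions, with 2 of 11 higher and 3 lower. Ctsc, cathepsin C, removes dipeptides and activates granule serine proteases. It had 33.4 and 30.8 CPM in shOgdh346 cells, 37.3 and 32.2 CPM in shOgdh2081 cells, and 48.9 and 59.2 CPM in control BFP positive cells of day 4. The Ogdh hairpin libraries were the lowest of the series and did not overlap any control library (log2 fold change -0.69 ± 0.13 SE, adjusted p = 5.01e-05, 0.62-fold). Ctsl, cathepsin L, had 159 and 155.8 CPM in shOgdh346 cells, 164 and 162 CPM in shOgdh2081 cells, and 197 and 196 CPM in control BFP positive cells of day 4. The groups did not overlap (log2 fold change -0.30 ± 0.08 SE, adjusted p = 0.00513), but the call was lost without control replicate 1. Ctsz, cathepsin Z, had 71.1 and 61.6 CPM in shOgdh346 cells, 74.6 and 67.8 CPM in shOgdh2081 cells, and 94.6 and 79.7 CPM in control BFP positive cells of day 4. The groups did not overlap (log2 fold change -0.35 ± 0.11 SE, adjusted p = 0.0161), and the call was lost without shOgdh2081 replicate 2 or control replicate 1. Without control replicate 1 the value was -0.20.

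Of the hydrolases that rose, Ctsd, the main aspartic protease of lysosomes, had 108 and 85.6 CPM in shOgdh346 cells, 91.02 and 106 CPM in shOgdh2081 cells, and 88.96 and 75.5 CPM in control BFP positive cells of day 4. The groups overlapped (log2 fold change 0.30 ± 0.11 SE, adjusted p = 0.0453), and the value ran from 0.17 to 0.44 as single libraries were left out, the lowest without shOgdh346 replicate 1 and the highest without control replicate 1. The call was lost in both of these, without shOgdh2081 replicate 2 and without control replicate 2. Lipa, which frees cholesterol and fatty acids from lipoprotein esters, had 171 and 199 CPM in shOgdh346 cells, 155.7 and 175 CPM in shOgdh2081 cells, and 154.7 and 134 CPM in control BFP positive cells of day 4. The groups were apart by a narrow margin (log2 fold change 0.26 ± 0.09 SE, adjusted p = 0.0263). The call was lost without shOgdh346 replicate 2, shOgdh2081 replicate 2 or control replicate 2, and without the last the value was 0.17.

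The other hydrolases were not called. Hexa had 19.7 and 11.1 CPM in shOgdh346 cells, 21.9 and 23.6 CPM in shOgdh2081 cells, and 15.3 and 13.99 CPM in control BFP positive cells of day 4. Library shOgdh346 replicate 2 lay below both control libraries and the other 3 lay above them (log2 fold change 0.47 ± 0.20 SE, adjusted p = 0.0991). Neu1, the lysosomal sialidase, had 52.1 and 58.2 CPM in shOgdh346 cells, 31.8 and 47.2 CPM in shOgdh2081 cells, and 42.6 and 35.4 CPM in control BFP positive cells of day 4 (log2 fold change 0.29 ± 0.13 SE, adjusted p = 0.121). Here shOgdh2081 replicate 1 lay below both control libraries. Ctsa (0.27 ± 0.10 SE, adjusted p = 0.0641), Glb1 (beta-galactosidase, 0.17 ± 0.12 SE) and Gaa (acid alpha-glucosidase, -0.13 ± 0.10 SE) did not pass. Ctsb overlaps Fdft1 on the other strand, which had 3447 counts where Ctsb had 11493.

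In the lumen, Npc2, which hands cholesterol to NPC1, had 84.9 and 82.2 CPM in shOgdh346 cells, 89.9 and 80.2 CPM in shOgdh2081 cells, and 69.9 and 65.7 CPM in control BFP positive cells of day 4. The Ogdh hairpin libraries lay above all 10 control libraries (log2 fold change 0.29 ± 0.11 SE, adjusted p = 0.0482), but the adjusted p lay near the threshold and the call was lost with any 1 of the 6 libraries left out. Grn had 8.16 to 18.4 CPM over the series, and its difference of 0.55 ± 0.23 SE on the log2 scale did not pass (adjusted p = 0.0874). Psap differed by -0.0012 ± 0.07 SE. Of the pump genes, Atp6ap1, an accessory subunit needed for assembly, had 139.9 and 151 CPM in shOgdh346 cells, 124 and 139.7 CPM in shOgdh2081 cells, and 118 and 113 CPM in control BFP positive cells of day 4. The groups were apart (log2 fold change 0.27 ± 0.09 SE, adjusted p = 0.0296), and the call was lost without shOgdh346 replicate 2, shOgdh2081 replicate 2 or either control library. Atp6v1a (0.13 ± 0.09 SE), Atp6v0d1 (0.13 ± 0.13 SE) and Atp6v1h (0.02 ± 0.10 SE) did not pass.

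The transcription factors themselves were not called. Tfeb had 27.8 and 25.7 CPM in shOgdh346 cells, 29.6 and 27.03 CPM in shOgdh2081 cells, and 28.8 and 25.2 CPM in control BFP positive cells of day 4 (log2 fold change 0.01 ± 0.15 SE, adjusted p = 0.992). Tfe3 had 115 and 103 CPM in shOgdh346 cells, 98.7 and 114 CPM in shOgdh2081 cells, and 93.3 and 108 CPM in control BFP positive cells of day 4 (log2 fold change 0.15 ± 0.09 SE, adjusted p = 0.276). In both, the libraries of the Ogdh hairpins and of the control overlapped.

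**Figure D3:**
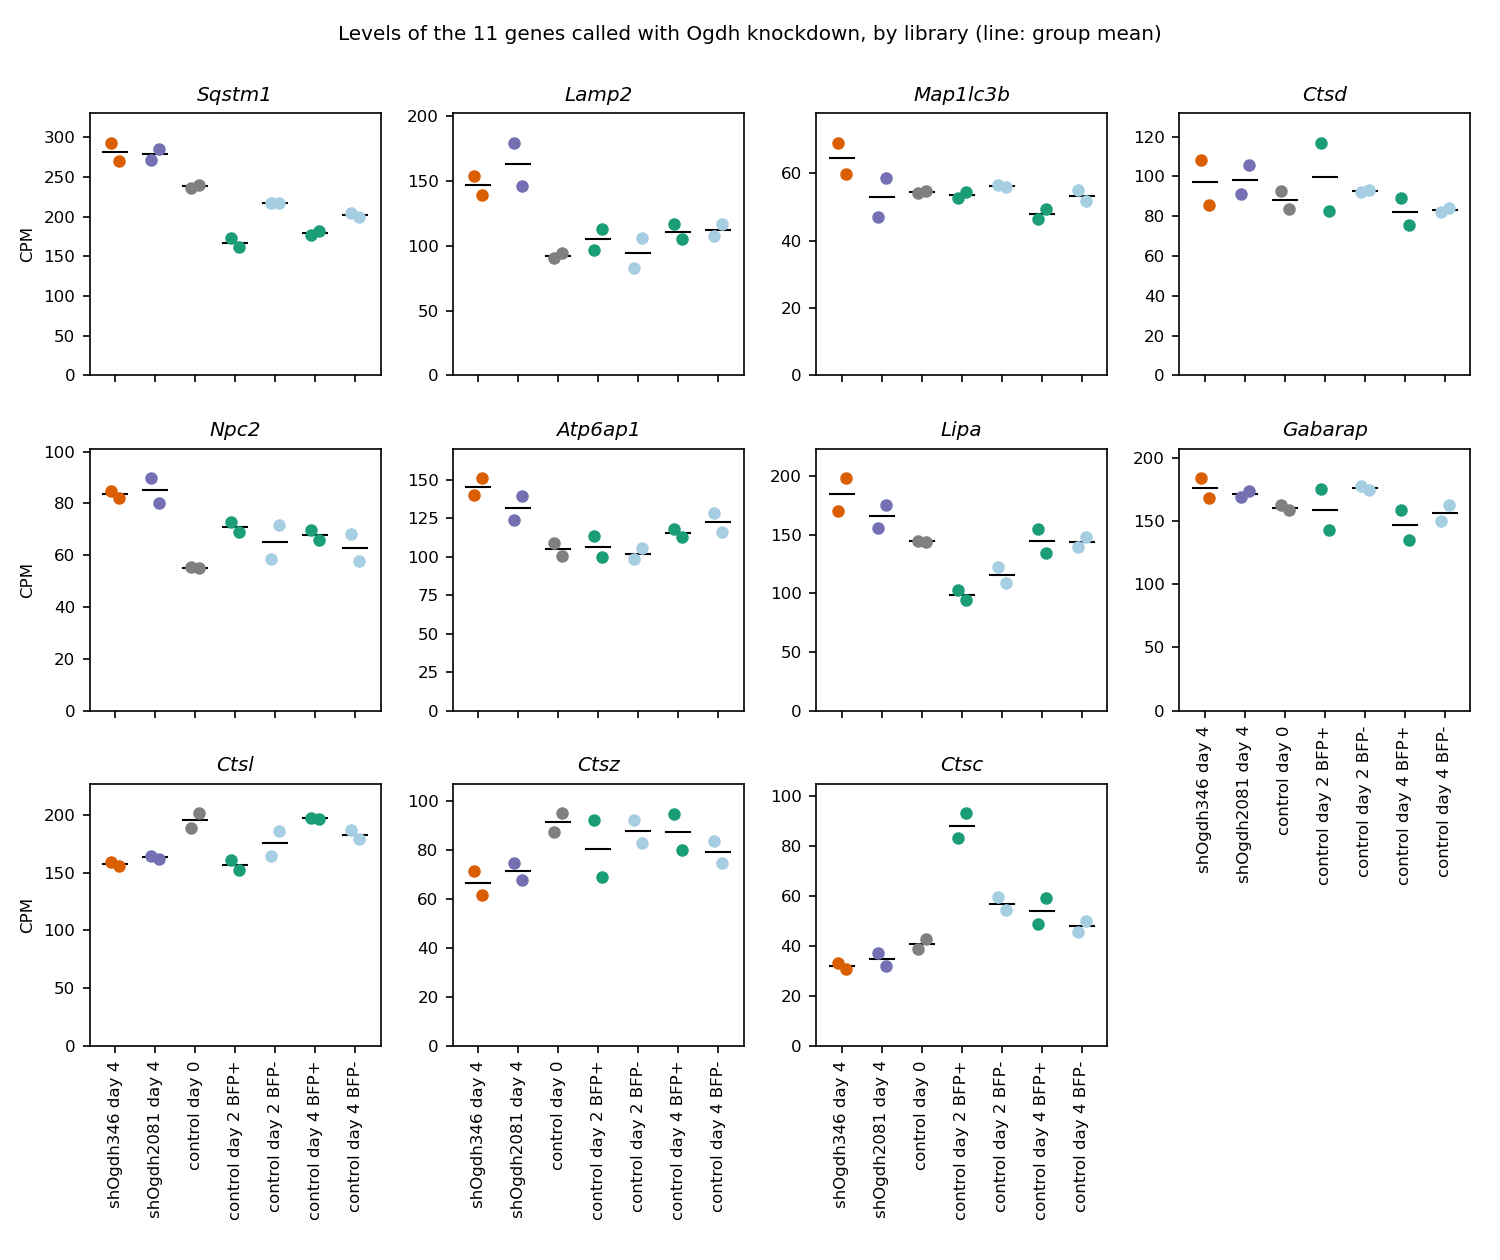
CPM of the 11 genes called with Ogdh knockdown in every library (points; the line is the mean of the 2 libraries), with the Ogdh hairpins on the left and the 5 control groups in order of day on the right. Each vertical axis starts at 0. Sqstm1, Lamp2, Npc2 and, by a narrow gap, Lipa show the Ogdh hairpin points above every control point. Ctsc shows them below every control point, by a narrow gap to day 0.

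Set beside the promoters shown above, 1 of the 11 genes with an E-box was higher (Ctsd), 1 was lower (Ctsl) and 9 did not pass. Of the 21 genes without one in the searched bases, 7 were higher, 2 were lower and 12 did not pass. Of all tested genes 7.72% were higher and 8.36% lower, and 1 of 11 in each direction is close to these shares. The shares among all tested genes with or without an E-box were not counted, and bases outside the windows were not searched. The median log2 fold change was 0.13 with an E-box and 0.25 without. All 5 genes with the extended form had positive values, between 0.13 and 0.30, and their median was 0.20, against 0.14 for the 27 without it. Of those 27, 20 were also above 0, and 1 of the 5 was called.

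**Figure D4:**
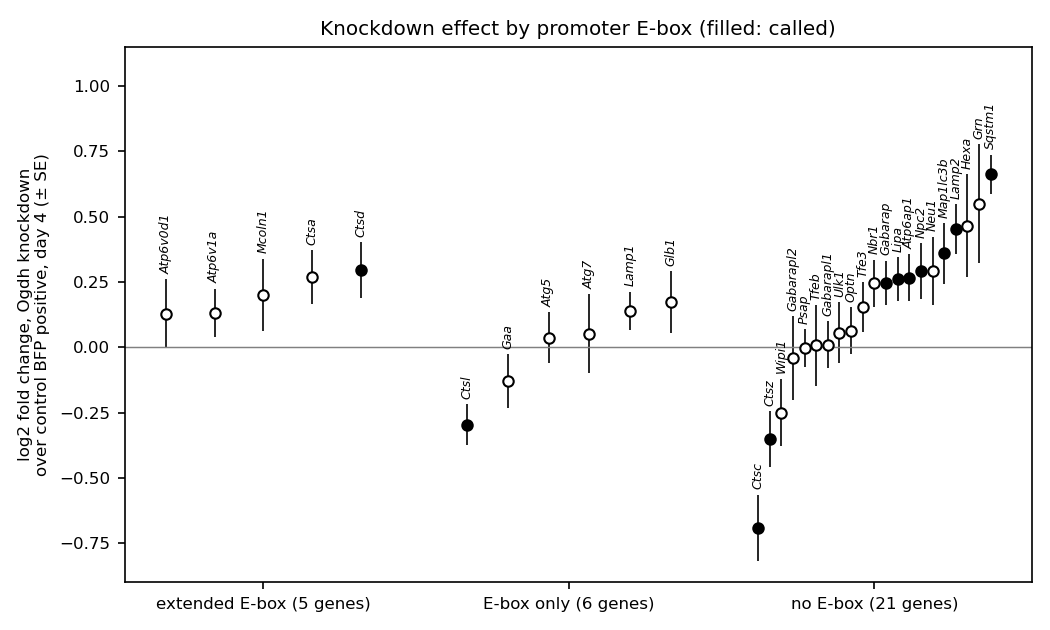
Log2 fold change (± SE) of Ogdh hairpin cells over control BFP positive cells of day 4 for the 32 genes with a RefSeq promoter, split by whether the promoter holds the extended E-box (5 genes), the E-box only (6 genes) or neither (21 genes). Filled points were called; the 5 genes with the extended form lie between 0.13 and 0.30, and the genes without an E-box spread from -0.69 to 0.66.

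Taken one hairpin at a time, with the control libraries shared by both comparisons, shOgdh346 had 6 genes higher and 3 lower of 35 (of all tested genes 11.2% were called, 5.58% higher and 5.6% lower). The called genes were Neu1 (0.44 ± 0.15 SE, adjusted p = 0.0396) and Sqstm1, Map1lc3b, Lamp2, Atp6ap1 and Lipa, which were higher, and Ctsc, Ctsl and Ctsz, which were lower. With shOgdh2081, 3 genes were higher and 2 lower (of all tested genes 11.6% were called, 6.02% higher and 5.53% lower). They were Sqstm1, Lamp2, Hexa (log2 fold change 0.65 ± 0.22 SE, adjusted p = 0.0455), Ctsc and Ctsl. The values were close for Sqstm1, at 0.67 ± 0.09 SE with shOgdh346 and 0.65 ± 0.09 SE with shOgdh2081. Lamp2 differed from the control by 0.42 ± 0.11 SE with shOgdh346 and by 0.48 ± 0.11 SE with shOgdh2081, and Ctsc by -0.70 ± 0.15 SE with shOgdh346 and by -0.68 ± 0.15 SE with shOgdh2081. Over 15 other settings, the call of Sqstm1 held in 15 with each hairpin. With shOgdh346 the calls held in 13 for Ctsc, 12 for Lamp2, 11 for Map1lc3b and 9 for Lipa. They held in 8 for Ctsl, 7 for Neu1, 7 for Atp6ap1 and 4 for Ctsz. With shOgdh2081 the calls held in 15 for Lamp2, 13 for Ctsc, 6 for Ctsl and 6 for Hexa. The count for shOgdh346 was 2 without its replicate 1 and 4 without its replicate 2 or either control library. The count for shOgdh2081 was 3 without its replicate 1, 2 without its replicate 2 and 3 without control replicate 1.

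Between the hairpins, edgeR called none of the 35 genes, where 9 of 10791 genes were called (0.0834%). At an unadjusted p under 0.05 there were 2, and DESeq2 called 0. The 2 were Mcoln1, higher with shOgdh346 by 0.31 ± 0.15 SE on the log2 scale, and Map1lc3b, higher by 0.25 ± 0.13 SE. In shOgdh346 cells Mcoln1 had 43.5 and 47.9 CPM, against 36.2 and 35.8 CPM in shOgdh2081 cells.

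The rest of the pathway was read from lists of other genes of the same processes, whose edgeR counts stand against 7.72% of all tested genes higher and 8.36% lower. No share of all tested genes is given for the DESeq2 counts. Of 32 tested lysosomal hydrolases and lumen proteins beyond the 35 genes, 5 were higher and 1 was lower with knockdown. Arsa, arylsulfatase A, rose by 0.59 ± 0.14 SE on the log2 scale and the acid phosphatase gene Acp5 by 0.45 ± 0.14 SE. Ppt1 and Ppt2 were also higher and Gusb, beta-glucuronidase, was lower (-0.27 ± 0.09 SE); these names were chosen after their values were seen. DESeq2 called 2 of the 32 genes higher and 0 lower. Of 19 other membrane proteins, 1 was higher, the amino acid sensor Slc38a9 (0.41 ± 0.09 SE), and 1 was lower, Scarb2 (-0.28 ± 0.09 SE), the receptor that carries glucocerebrosidase to the lysosome. DESeq2 called 1 of the 19 higher and 0 lower, so Scarb2 was not called there. In edgeR 1 of 19 is close to the share of all tested genes in either direction.

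None of 13 other pump genes, 32 other autophagy machinery genes and 12 genes of lysosomal enzyme sorting was called by edgeR or by DESeq2. At an unadjusted p under 0.05 there were 4 pump genes, 4 machinery genes and 1 sorting gene. Of 10 other selective autophagy receptors 3 were higher (2 in DESeq2): the ubiquitin-binding adaptor Tollip (0.51 ± 0.11 SE), the endoplasmic reticulum and Golgi receptor Calcoco1 (1.11 ± 0.26 SE) and Ncoa4, the receptor for ferritin (0.62 ± 0.16 SE). Of 24 tested regulators of mTORC1 and TFEB, 4 were higher and 2 lower, where DESeq2 called 3 higher and 0 lower. The 2 of 24 lower are close to the share of all tested genes. Flcn, folliculin, a partner of the Rag GTPases that holds TFEB and TFE3 in the cytoplasm, had 114 ± 1.3 CPM with shOgdh346 and 118 ± 0.8 CPM with shOgdh2081, against 71.2 ± 5.7 CPM in control cells (SD, n = 2 each; log2 fold change 0.69 ± 0.10 SE, edgeR adjusted p = 3.72e-07). Its partner Fnip1 rose by 0.68 ± 0.11 SE and Tsc1, a brake on mTORC1, by 0.44 ± 0.11 SE. The others, named after their values were seen, were Sesn3 (0.92 ± 0.28 SE), which was higher, and Tsc2 (-0.28 ± 0.08 SE) and the Ragulator subunit Lamtor1 (-0.31 ± 0.09 SE), which were lower.

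Against control BFP negative cells of day 4, which the sort took as uninduced, 11 of the 35 genes were higher with knockdown and 1 was lower (of all tested genes 20.8% were called, 10.5% higher and 10.3% lower). Of the 11 genes called against BFP positive cells, 6 were called again: Sqstm1 (0.49 ± 0.07 SE), Lamp2 (0.43 ± 0.08 SE), Npc2 (0.44 ± 0.09 SE), Ctsd, Lipa and Ctsc (-0.55 ± 0.11 SE). Tfe3 (0.32 ± 0.08 SE), Ctsa, Glb1, Hexa, Nbr1 and Lamp1 joined them as higher. Map1lc3b, Gabarap, Atp6ap1, Ctsl and Ctsz were not called against these cells.

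Against the control cells of day 0, a comparison added after the data had been seen, 15 genes were higher and 5 lower (of all tested genes 35.7% were called, 17.9% higher and 17.8% lower). Glb1 (0.73 ± 0.13 SE), Lamp2 (0.73 ± 0.10 SE), Npc2 (0.59 ± 0.11 SE) and Nbr1 (0.57 ± 0.09 SE) were among the higher genes. Sqstm1 differed by 0.25 ± 0.07 SE (adjusted p = 0.0045). The genes lower than at day 0 were Ctsz (-0.40 ± 0.11 SE), Tfeb (-0.38 ± 0.14 SE), Gabarapl1 (-0.29 ± 0.09 SE), Ctsl (-0.28 ± 0.08 SE) and Ulk1 (-0.27 ± 0.11 SE). Ctsc was not called (log2 fold change -0.30 ± 0.13 SE, adjusted p = 0.069). Control BFP positive cells of day 4 themselves differed from day 0 by -0.41 ± 0.09 SE in Sqstm1 (called) and by 0.39 ± 0.14 SE in Ctsc, which did not pass (adjusted p = 0.0857).

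In cells with the control hairpin, 14 of the 35 genes differed among the 5 groups (edgeR, any difference, 27.6% of all tested genes called). They were the hydrolases Ctsa, Ctsc, Ctsl, Hexa, Gaa, Glb1 and Lipa, the receptors Sqstm1, Nbr1 and Optn, and Mcoln1, Grn, Tfe3 and Gabarapl1. The count was 9 without control day 4 BFP positive replicate 1 and 9 without control day 0 replicate 2. Between BFP positive and BFP negative cells of day 2, Ctsc was higher and Gaa, Optn and Sqstm1 were lower (4 of 35; of all tested genes 6.23% were called, 3% higher and 3.22% lower), and the count was 2 without control day 2 BFP positive replicate 2. At day 4 edgeR called none of the 35, where 8 genes in all were called (0.0741%). Of the 35, 1 had an unadjusted p under 0.05, Sqstm1 at -0.18 ± 0.08 SE, and DESeq2 called 0.

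Ctsc had the widest course. Control cells had 38.7 and 42.96 CPM at day 0, 83.3 and 93.4 CPM in BFP positive and 59.5 and 54.3 CPM in BFP negative cells of day 2, and 48.9 and 59.2 CPM in BFP positive and 45.8 and 49.9 CPM in BFP negative cells of day 4. BFP positive cells of day 2 stood highest, 2.14-fold above day 0 (log2 fold change 1.10 ± 0.14 SE, adjusted p = 5.93e-09) and above BFP negative cells of the same day (log2 fold change 0.63 ± 0.12 SE, adjusted p = 0.000356). BFP negative cells of day 2 were also above day 0 (0.47 ± 0.14 SE), and at day 4 the difference of BFP positive cells from day 0 did not pass (log2 fold change 0.39 ± 0.14 SE, adjusted p = 0.0857).

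Sqstm1 moved the other way. Control cells had 237 and 239 CPM at day 0, 173 and 162 CPM in BFP positive and 217 and 218 CPM in BFP negative cells of day 2, and 177 and 181 CPM in BFP positive and 205 and 199.9 CPM in BFP negative cells of day 4. BFP positive cells were below day 0 at day 2 (log2 fold change -0.50 ± 0.09 SE, adjusted p = 2.57e-05) and at day 4 (log2 fold change -0.41 ± 0.09 SE, adjusted p = 0.000894). These calls held without any 1 of the 4 libraries of each comparison. BFP negative cells of day 4 differed from day 0 by -0.24 ± 0.08 SE and did not pass (adjusted p = 0.0514).

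Gaa, which breaks down glycogen in the lysosome, had 78.1 and 96.5 CPM at day 0, 53.7 and 49.7 CPM in BFP positive and 83.5 and 79.5 CPM in BFP negative cells of day 2, and 87.4 and 82.1 CPM in BFP positive and 87.03 and 79.4 CPM in BFP negative cells of day 4. BFP positive cells of day 2 stood apart below the other 4 groups (log2 fold change -0.74 ± 0.13 SE, adjusted p = 3.03e-05 against day 0, and log2 fold change -0.63 ± 0.13 SE, adjusted p = 0.000591 against BFP negative cells). Lipa had 145 and 144.1 CPM at day 0, 103 and 94.04 CPM in BFP positive and 122 and 109 CPM in BFP negative cells of day 2, and 154.7 and 134 CPM in BFP positive and 139 and 148 CPM in BFP negative cells of day 4. Both groups of day 2 were below day 0, with a log2 fold change of -0.54 ± 0.11 SE in BFP positive cells and -0.34 ± 0.10 SE in BFP negative cells, and at day 4 neither was called.

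Glb1 had 36.2 and 30.1 CPM at day 0, 35.1 and 37.5 CPM in BFP positive and 45.8 and 45.2 CPM in BFP negative cells of day 2, and 49.5 and 48.5 CPM in BFP positive and 50.2 and 42.4 CPM in BFP negative cells of day 4. It was above day 0 in BFP negative cells of day 2 (0.45 ± 0.15 SE) and in both groups of day 4 (BFP positive 0.56 ± 0.15 SE, BFP negative 0.44 ± 0.14 SE). Over 13 other settings, the Glb1 call held in 6 for BFP negative cells of day 2. At day 4 it held in 9 for BFP positive and 6 for BFP negative cells. Part of its counts may belong to Tmppe, which shares 165 exon bases on the same strand and had 777 counts where Glb1 had 2213. Atg7 had 30.2 and 37.5 CPM at day 0, 22.4 and 21.8 CPM in BFP positive and 23.1 and 30.8 CPM in BFP negative cells of day 2, and 29.1 and 28.4 CPM in BFP positive and 33.3 and 30.4 CPM in BFP negative cells of day 4. It was lower in BFP positive cells of day 2 than at day 0 (log2 fold change -0.60 ± 0.19 SE, adjusted p = 0.0188). Grn had 8.16 and 11.7 CPM at day 0, 8.95 and 11.6 CPM in BFP positive and 18.4 and 16.3 CPM in BFP negative cells of day 2, and 9.40 and 12.6 CPM in BFP positive and 16.8 and 11.7 CPM in BFP negative cells of day 4. It was higher in BFP negative cells of day 2 than at day 0 (0.79 ± 0.25 SE, adjusted p = 0.0314), on few counts.

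Against day 0, BFP positive cells of day 2 had 3 genes higher and 7 lower (of all tested genes 17.9% were called, 9.1% higher and 8.77% lower). Beside those above, Nbr1 and Npc2 were higher and Gabarapl1 (-0.43 ± 0.11 SE), Tfe3 (-0.37 ± 0.12 SE) and Ctsl (-0.31 ± 0.09 SE) were lower. The count was 5 without control day 2 BFP positive replicate 1, 6 without replicate 2 and 6 without control day 0 replicate 2. The calls of Ctsc, Gaa, Lipa, Sqstm1 and Gabarapl1 held in each of these.

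BFP negative cells of day 2 had 4 genes higher and 2 lower than day 0 (of all tested genes 10.3% were called, 5.33% higher and 4.98% lower). They were Grn, Ctsc, Glb1 and Nbr1 above and Lipa and Tfe3 below, and the count was 3 without control day 2 BFP negative replicate 1, 0 without its replicate 2, 0 without control day 0 replicate 1 and 1 without its replicate 2. At day 4, BFP negative cells had 3 genes higher and 0 lower (of all tested genes 8.03% were called, 3.84% higher and 4.19% lower), namely Glb1, Nbr1 and Optn. That count was 1 without control day 4 BFP negative replicate 2 and 0 without either day 0 library. BFP positive cells of day 4 had Glb1 and Optn higher and Sqstm1 lower (of all tested genes 7.11% were called, 3.46% higher and 3.65% lower), a count that was 1 without either of their libraries or without control day 0 replicate 2.

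**Figure D5:**
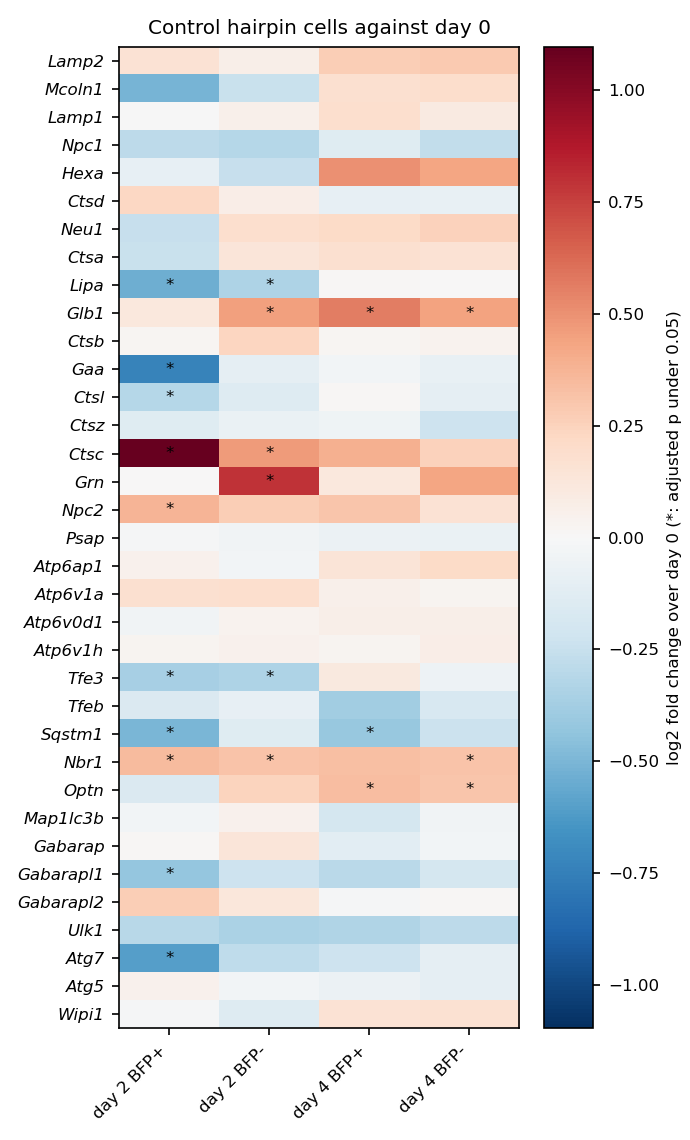
Log2 fold change of control hairpin cells over day 0 for the 35 genes (rows, grouped by role) in BFP positive and BFP negative cells of day 2 and day 4 (columns); red is higher than day 0, blue is lower, and an asterisk marks an adjusted p under 0.05. Ctsc in BFP positive cells of day 2 is the darkest red cell (1.10) and Gaa in the same cells the darkest blue (-0.74).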

How the data were processed

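PolyA RNA was sequenced single-end in 14 libraries. The authors deposited whole-number counts per gene with a transcript length per gene. Per the submitters' processing notes, FastQC 0.11.5, Trimmomatic 0.36, STAR 2.6.1a and featureCounts 1.6.3 were used on mm10; the labels' protocol instead names hg19, HTSeq and RPKM, while the deposited table holds counts under mouse identifiers. Counts were tested here with edgeR 4.0.16 (R 4.3.3): filterByExpr over 7 groups, TMM, 1 quasi-likelihood fit of all 14 libraries by group, and Benjamini-Hochberg adjustment over 10791 genes at 0.05. SE is the absolute log2 fold change over the root of F. DESeq2 1.42.0, other filters, scalings and controls, a replicate block and single left-out libraries were alternatives. Coordinates are GRCm38. The 35 genes, the other lists and the tests were chosen with earlier results of these data known. Per-library values are printed for genes called with knockdown or with 1 hairpin, the ATG8 family, the 6 largest control changes, and a few others chosen after their values were seen; other lists name up to 3 called genes by adjusted p. A gene of these lists that the rule would name is not reported here. Totals of 913482 to 10271698 counts limit precision; groups have 2 libraries. Functions were tested on simulated counts.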

Additional observations from a re-analysis of the deposited data

Results flagged for a closer look

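The induction effect on Gaa, meaning BFP positive over BFP negative control cells, differed between day 4 and day 2. It was 0.05 ± 0.11 SE on the log2 scale at day 4 and -0.63 ± 0.13 SE at day 2, a difference of 0.68 ± 0.17 SE (edgeR interaction, adjusted p = 0.0271). The test of this difference was added after the data had been seen. It called 71 of 10791 genes (0.658%) and 1 of the 35 genes, and 6 of the 35 had an unadjusted p under 0.05. BFP positive cells had 87.4 and 82.1 CPM at day 4 and 53.7 and 49.7 CPM at day 2, and BFP negative cells 87.03 and 79.4 CPM at day 4 and 83.5 and 79.5 CPM at day 2.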

How the results depend on the processing

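Depth and 2 libraries per group limit the calls. The counts below are not set against the share of all tested genes called under the same setting. Of the counts of called genes, 105 of the values under other settings stayed within 1.5 times the reported one and 54 did not. The 105 include reported counts of 0 that stayed at 0, as in the comparison between hairpins and for induction at day 4. Of single genes, 505 values kept their call, 241 lost it and 0 changed direction. Without a filter on low counts the calls were 5 for knockdown, 5 for shOgdh346, 3 for shOgdh2081, 3 for BFP negative cells of day 2 and 0 for BFP negative cells of day 4 over day 0. With libraries thinned to equal depth they were 3 for knockdown, 4 for shOgdh346, 2 for shOgdh2081, 2 for induction at day 2, 4 for BFP positive and 2 for BFP negative cells of day 2, 0 for BFP negative cells of day 4, and 6 among the control groups. DESeq2 gave 4 for knockdown, 2 for shOgdh346, 3 for shOgdh2081, 5 for BFP positive and 0 for BFP negative cells of day 2, 1 for BFP positive and 0 for BFP negative cells of day 4, and 6 among the control groups. Without the shallow library of each Ogdh hairpin shOgdh346 had 4 and shOgdh2081 had 3. A fit on only the groups compared gave 6 for BFP positive cells of day 4, where a transcript length offset gave 5, and 3 for BFP negative cells of day 2. With day 0 as the control, an alternative chosen after seeing the data, knockdown had 20. Fewer samples or counts enter the thinned and left-out fits; otherwise the cause was not tested.

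With each replicate left out in turn the counts ran from 4 to 10 for knockdown, 2 to 4 for shOgdh346, 2 to 4 for shOgdh2081, 2 to 5 for induction at day 2, 5 to 7 for BFP positive and 0 to 3 for BFP negative cells of day 2, 1 to 2 for BFP positive and 0 to 3 for BFP negative cells of day 4, and 9 to 14 among the control groups. The comparison between hairpins and induction at day 4 stayed at 0. A group left with 1 library was assumed to vary like the others.

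Same-numbered replicates deviated together little (correlations from -0.143 to 0.213, median 0.016, 3 of 21 pairs above 0.1). The 3 pairs joined control BFP negative cells of day 4 with BFP negative cells of day 2 (0.213), BFP positive cells of day 2 (0.16) and shOgdh346 cells (0.122). Whether the numbers pair some of the samples cannot be told from these values. With the replicate number as a block 12 genes were called with knockdown, 11 with shOgdh346 and 5 with shOgdh2081; with the library number from the descriptions as a block, 11 with knockdown, 9 with shOgdh346 and 4 with shOgdh2081.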
